A study of Mus musculus with 7 samples.

Results

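The nuclear-encoded genes of respiratory complexes I to IV were examined for occupancy by the clock factors BMAL1 and REV-ERBα and by RNA polymerase II (RNAP2) in mouse skeletal muscle. Members were the protein-coding genes on chromosomes 1 to 19 and X whose symbols begin with Nduf, Uqcr, Cox4, Cox5, Cox6, Cox7 or Cox8, together with Sdha, Sdhb, Sdhc and Sdhd. There were 76 such genes among the 21755 protein-coding genes of these chromosomes, and the rule uses symbols and positions but no measured value. The set also holds genes whose products are not subunits: 8 Ndufaf genes, which encode complex I assembly factors, and Ndufa4l2, a paralog of the complex IV subunit gene Ndufa4.

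Gastrocnemius muscle, a predominantly fast calf muscle, was taken from wild-type male C57BL/6J mice, 5 months old, and subjected to chromatin immunoprecipitation followed by sequencing (ChIP-seq). BMAL1 and RNAP2 were mapped at Zeitgeber time (ZT) 4, which is counted in hours from lights on, and REV-ERBα at ZT 8, each in 2 biological replicates, with input chromatin of ZT 4 as the control for peak calling. All animals carried the same genotype and each factor was mapped at 1 time, so for REV-ERBα against the other factors, factor and time cannot be told apart, and no knockout library enters the comparisons. The chromatin came from whole muscle, so fewer nuclei of a cell type and less occupancy per nucleus cannot be told apart.

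Respiratory chain complexes pass electrons from NADH and succinate to oxygen within the inner mitochondrial membrane, and the chain builds the proton gradient that drives ATP synthase. Complex I (NADH dehydrogenase) and complex II (succinate dehydrogenase) feed electrons in, complex III hands them to cytochrome c, and complex IV (cytochrome c oxidase) reduces oxygen. Most subunits are encoded in the nucleus and must be made in proportion to those encoded in mitochondrial DNA. The factors NRF1, GABPA (an ETS family member), YY1 and the estrogen-related receptors, together with the coactivator PGC-1α, are textbook regulators of these genes. BMAL1 activates through E-boxes, and REV-ERBα represses through response elements that it shares with other nuclear receptors.

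The sequences shown here were chosen from the promoter with the REV-ERBα region of the set (Uqcrh) and those of 2 muscle isoforms of complex IV with strong RNAP2 occupancy. Added to these were 2 promoters with a match to the NRF1 motif. The Uqcrh stretch lies within its REV-ERBα region but ends short of the peak summits. Each is the longest stretch upstream of the RefSeq gene start that no annotated exon covers, written 5′ to 3′ on the strand of the gene (build GRCm38, that is mm10). Capitals mark the exact motif matches: an ETS match for Uqcrh, on its reverse strand, a MyoD-type E-box for Cox8b and NRF1 matches for Cox6a1 and Ndufa6, while none of the 8 motifs searched falls in the stretch of Cox7a1. The positions are chr4:116075072-116075268 (minus strand) for Uqcrh, chr7:140900447-140900596 (minus strand) for Cox8b, chr7:30184021-30184143 (plus strand) for Cox7a1, chr5:115348982-115349129 (minus strand) for Cox6a1 and chr15:82354323-82354441 (minus strand) for Ndufa6.
Uqcrh: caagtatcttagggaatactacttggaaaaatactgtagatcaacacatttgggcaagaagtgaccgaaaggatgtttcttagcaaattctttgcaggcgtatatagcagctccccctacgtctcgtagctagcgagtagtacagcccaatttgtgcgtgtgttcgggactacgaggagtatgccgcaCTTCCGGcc
Cox8b: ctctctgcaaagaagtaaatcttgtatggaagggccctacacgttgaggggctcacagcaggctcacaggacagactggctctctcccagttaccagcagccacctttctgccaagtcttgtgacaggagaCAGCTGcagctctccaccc
Cox7a1: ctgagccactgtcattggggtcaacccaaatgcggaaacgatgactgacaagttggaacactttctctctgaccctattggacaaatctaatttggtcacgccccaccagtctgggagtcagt
Cox6a1: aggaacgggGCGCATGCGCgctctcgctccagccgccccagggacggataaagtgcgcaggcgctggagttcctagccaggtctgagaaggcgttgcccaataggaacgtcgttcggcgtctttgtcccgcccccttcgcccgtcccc
Ndufa6: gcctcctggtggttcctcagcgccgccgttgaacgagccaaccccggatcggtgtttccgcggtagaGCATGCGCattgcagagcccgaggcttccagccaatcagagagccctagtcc

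The 6 peak lists differed in size, which bears on every count. The REV-ERBα lists held 28881 and 29934 peaks in replicates 1 and 2. The RNAP2 lists held 87870 and 168821 peaks, and the BMAL1 lists 34737 and 177669, so replicate 2 of both these factors was much the longer list. In BMAL1 replicate 2, 29.4% of all peaks carried the same −log10 p of 1.87, a single low step of the scale. Here −log10 p is the significance that the authors' peak caller gave a peak against the input, it can be ranked within a list but not compared between lists, and it is no measure of RNA. A peak was assigned to a gene when it lay within 10 kb of one of its transcription start sites (TSSs). A region was counted for a factor when peaks of both replicates overlapped by at least 1 bp, and a shared site when 3 or all 4 lists of the clock factors had a peak. The strength of a region is the lower −log10 p of its replicates. It therefore leans on the list with lower values and is only a rough rank. Over members with an RNAP2 peak, the median −log10 p was 9.46 in replicate 1 and 5.42 in replicate 2.

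Markers of muscle fibers had RNAP2 regions, in keeping with the labeled tissue. All 10 muscle markers, among them the actin gene Acta1 and the creatine kinase gene Ckm, had an RNAP2 region in both replicates. Of the markers of other cells, 0 of 4 endothelial, 2 of 4 fibroblast, 2 of 4 macrophage, 0 of 4 adipocyte and 0 of 4 liver genes had a region. The medians of their strongest −log10 p were 64.9 in RNAP2 replicate 1 for muscle, and 2.27 for endothelium, 4.47 for fibroblasts, 4.41 for macrophages, 2.94 for adipocytes and 0 for liver, where a gene without a peak counts as 0. The part of other cell types in the values of the respiratory chain genes was not tested.

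RNAP2 occupied most genes of the set. Of the 76 members, 61 (80.3%) had an RNAP2 region in both replicates, beside 36.3% of the 21679 other protein-coding genes. When each replicate had to reach a −log10 p of 3, the count was 50 (65.8%), beside 27.6% of other genes. The median of the strongest RNAP2 −log10 p over all 76 members, with absent peaks as 0, was 9.11 in replicate 1 and 5.10 in replicate 2, while over the other genes it was 3.21 and 2.60. The median member stood at percentile 81.6 of all genes in both lists. Across the 71 members with a peak in both lists, Spearman's rho between replicates was 0.66, as a description across genes, and it was 0.66 across the 13511 other genes with a peak in both.

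**Figure D1:**
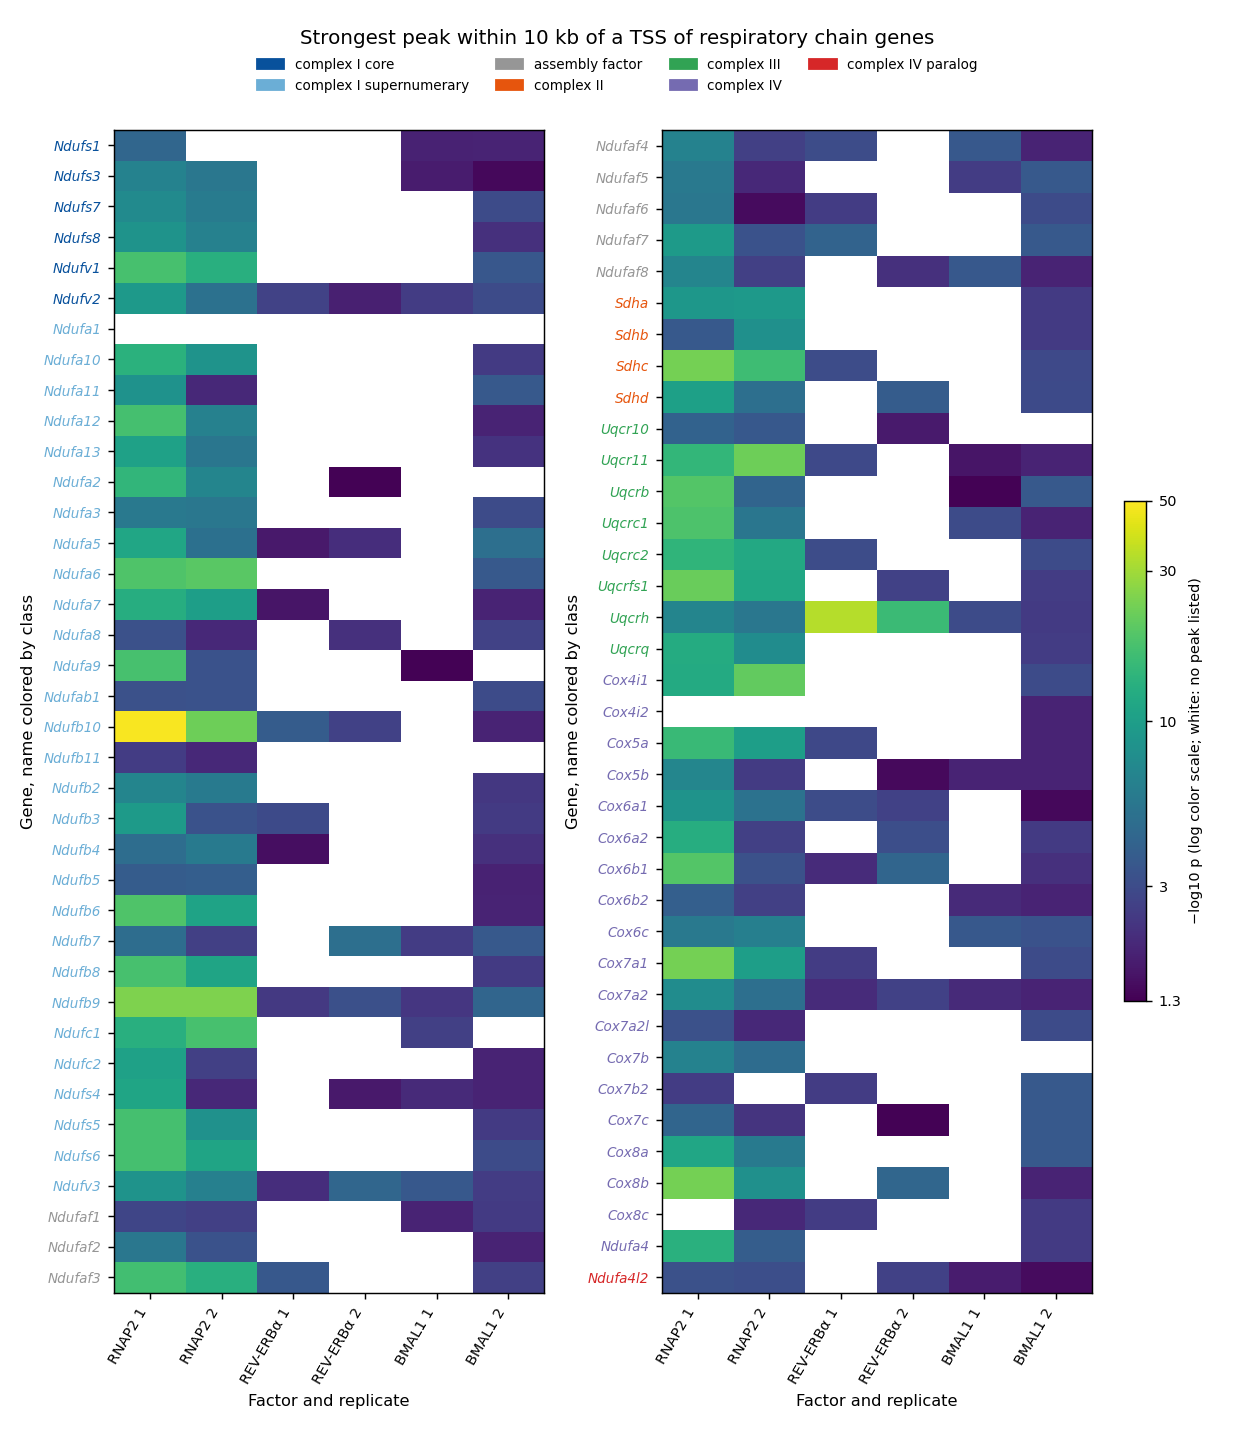
Strongest −log10 p within 10 kb of a TSS for 75 of the 76 genes (rows, names colored by class) in each of the 6 peak lists (columns, 2 replicates per factor), on a logarithmic color scale where white means that no peak is listed. In these rows the RNAP2 columns are filled for 72 and 71 genes, the REV-ERBα columns for 23 and 22 and the BMAL1 columns for 22 and 68, and Uqcrh is the one row with a high value in both REV-ERBα columns.

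**Figure D2:**
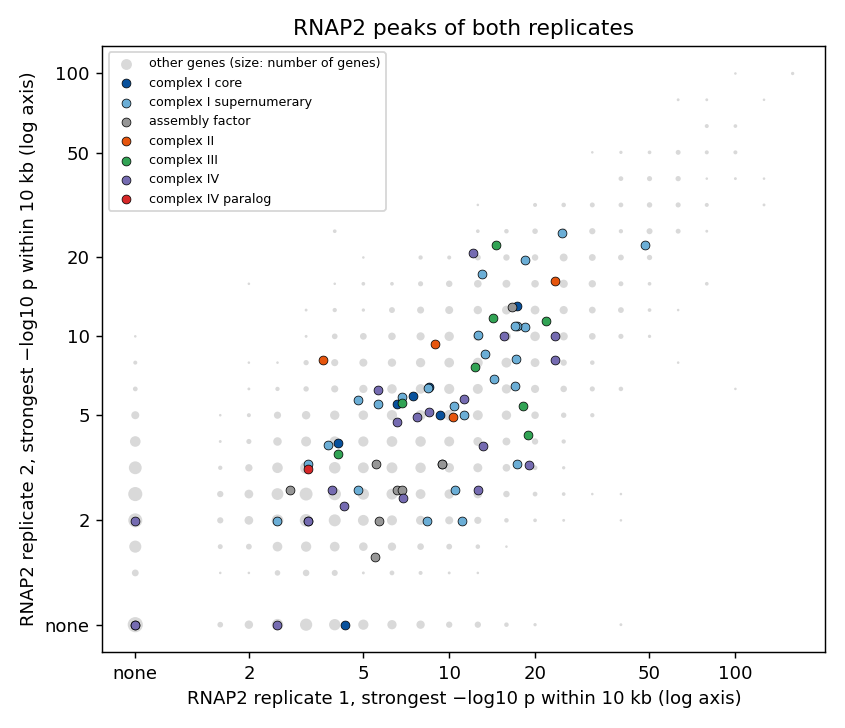
Strongest RNAP2 −log10 p within 10 kb in replicate 1 (x axis) and replicate 2 (y axis), both on log axes, for the 76 genes (colored points, by class) and the other protein-coding genes (grey points, sized by the number of genes at that place). The median respiratory chain gene lies at 9.11 and 5.10, and the members Ndufb9 and Ndufb10 are at the upper right of the colored points.

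For most members with an RNAP2 region, as for most other genes with one, the strongest RNAP2 peak sat near the gene start. In replicate 1 the strongest RNAP2 summit lay within 1 kb of a TSS for 56 of the 61 genes with a region (91.8%), beside 74.9% of the 7878 other genes with an RNAP2 region. In replicate 2 this held for 47 of 61 (77%), beside 70.1%. The median summit was 41 bp downstream of the TSS in replicate 1 and 37 bp downstream in replicate 2, and for other genes it was 2 and 11 bp downstream. Of the summits within 1 kb, 36 in replicate 1 and 31 in replicate 2 were downstream of the start, and 20 and 16 upstream. Counting regions within 1 kb alone left 57 members (75%), beside 29.8% of other genes. The members' regions were narrow, with a median width of 637 bp (298 to 1323 bp), near the 665 bp of other genes.

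**Figure D3:**
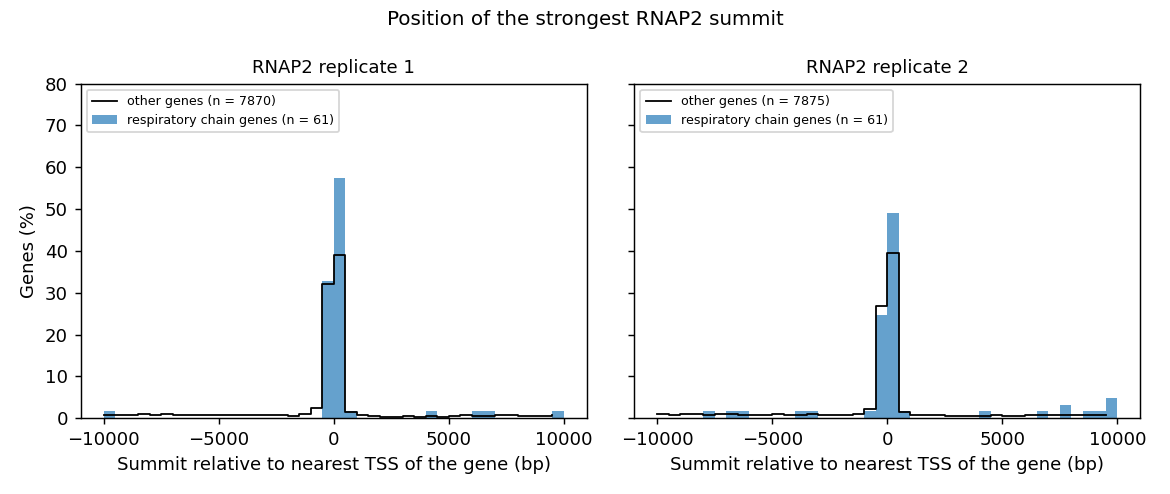
Position of the strongest RNAP2 summit relative to the nearest TSS of the gene, in bins of 500 bp, as a percentage of genes, for the 61 respiratory chain genes (bars) and the other genes (line) with an RNAP2 region, one panel per replicate. Of the 61 genes, 56 in replicate 1 and 47 in replicate 2 lie within 1 kb of the TSS.

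RNAP2 regions were found at both core and supernumerary genes of complex I. The 7 nuclear-encoded core subunits hold the flavin and the iron-sulfur clusters and form part of the quinone site. Of their genes, 6 had an RNAP2 region. The supernumerary subunits surround this core, and 25 of 29 had one. Among core genes the strongest was Ndufv1, which encodes the flavin-binding subunit, at 17.2 and 13.0 in the replicates, with summits 42 and 47 bp downstream of its start. The core gene without a region was Ndufs1, the largest iron-sulfur subunit, which had a peak of 4.32 in replicate 1 and none in replicate 2. Ndufs1 was chosen for mention after its values were seen.

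Among the supernumerary genes, Ndufb9, which encodes a subunit of the LYR family, had the strongest region at its own start, with 24.7 in both replicates and a fold enrichment over input of 11.3 and 10.3. Its TSS lies 26 bp from that of Tatdn1 on the opposite strand, so the region belongs to both starts alike. Ndufa6, of the same family, followed with 18.4 and 19.6, at summits 41 bp downstream and 6 bp upstream. Both genes were high in both lists.

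The Ndufb10 window held the highest single value of the set, 48.2 in replicate 1 and 22.3 in replicate 2. That region lies more than 4 kb downstream of the Ndufb10 start and nearest to Rps2, a cytosolic ribosomal protein gene. Within 1 kb of the Ndufb10 start the values were 9.58 and 7.09. A window of 10 kb therefore credits Ndufb10 with its neighbor's peak, and 11 of the 61 genes had a strongest region that was nearest to another protein-coding gene (82% own-nearest, beside 81.7% for other genes).

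Fewer assembly factors than subunits had a region. They join subunits into complex I without remaining in it, and 2 of 8 had an RNAP2 region. Ndufaf3, which acts early in assembly, had 16.6 and 13.0. Ndufaf2, a chaperone of a late stage, had a region of 5.56 and 1.48. The other 6 (Ndufaf1, Ndufaf4, Ndufaf5, Ndufaf6, Ndufaf7 and Ndufaf8, named after their values were seen) each had a replicate 1 summit within 131 bp of the start, with −log10 p from 2.78 to 9.46, and no overlapping peak in replicate 2. Their absence from the count thus rests on the replicate 2 list. Without the 8 assembly factors, 59 of 68 genes (86.8%) had a region.

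All 4 genes of complex II had an RNAP2 region. Sdha encodes the flavoprotein that oxidizes succinate and reached 8.91 and 9.32 in the 2 lists. Sdhb, the iron-sulfur subunit, had 3.62 and 8.09. The membrane anchor genes had 23.5 and 16.2 (Sdhc) and 10.3 and 4.93 (Sdhd). Sdhc was the highest of the 4 in both lists and Sdhb the lowest in replicate 1, while Sdhd was the lowest in replicate 2. Sdha, Sdhc and Sdhd each have an opposite-strand gene start nearby, whereas Sdhb has none within 1 kb. It is 29 bp away for Sdha (Ccdc127), 108 bp for Sdhc and 98 bp for Sdhd (Timm8b).

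All 8 Uqcr genes of complex III had a region as well. Uqcrfs1 encodes the Rieske iron-sulfur protein and had 21.8 in replicate 1 and 11.4 in replicate 2. Uqcrc2, one of the core proteins, had 14.2 and 11.8. Both had their summits within 103 bp of the start in both lists. Uqcr11, which encodes a small subunit, had 14.1 and 22.2 at a region nearest to Mbd3, and 14.6 and 5.39 within 1 kb of its own start. The remaining Uqcr genes ranged from 4.09 to 18.9 in replicate 1 and from 3.57 to 7.64 in replicate 2.

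Among complex IV genes 15 of 19 had a region. Several subunits exist as a widely expressed form, a form of heart and skeletal muscle, and a form of testis. The muscle form Cox7a1 had 23.4 in replicate 1 and 9.996 in replicate 2, and the widely expressed Cox7a2 7.72 and 4.93. The muscle form Cox8b had 23.4 and 8.12, and the widely expressed Cox8a 11.3 and 5.79. In both of these pairs the muscle form was higher in both lists. The pair of Cox6a genes did not keep an order, since the muscle form Cox6a2 had 12.6 and 2.60 and Cox6a1 8.49 and 5.16. The differences within these pairs were not tested against the spread of the 2 replicates.

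In the remaining groups the widely expressed form had the higher RNAP2 value in replicate 1. Cox4i1, the widely expressed form of the largest nuclear-encoded subunit, had 12.1 and 20.7, whereas Cox4i2, the form of lung, had no RNAP2 peak in either list. Cox6b1 had 18.96 and 3.23, and the testis form Cox6b2 had a region of 2.34 and 1.99, with no replicate 1 peak within 1 kb of its start. Cox7b on chromosome X had 6.55 and 4.73, of which the replicate 2 value lies nearest to Magt1 and falls to 2.60 within 1 kb of the Cox7b start, and the testis form Cox7b2 had 2.50 in replicate 1 and no peak in replicate 2. Cox8c, also of testis, had no peak in replicate 1 and 1.99 in replicate 2. Cox7a2l, whose product joins complexes into supercomplexes, had 3.21 and 1.99 at places that did not overlap. Ndufa4, the complex IV subunit, had 13.1 and 3.83, and its paralog Ndufa4l2, known as a hypoxia-induced gene, had 3.21 and 3.12, with a region of 2.84 and 1.65 nearest to Stac3 and no peak within 1 kb of its own start in either list.

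Of the 15 genes without an RNAP2 region, 10 had peaks in both lists that did not overlap, 2 had a peak in replicate 1 alone, 1 in replicate 2 alone and 2 in neither list. The 2 were Cox4i2 and Ndufa1, which encodes a small membrane subunit of complex I on chromosome X. Ndufa1 had no peak in any of the 6 lists. Of the 3 members on chromosome X, 2 had an RNAP2 region, beside 10.5% of the 945 other genes there.

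REV-ERBα left a reproducible region at 1 gene of the set. That gene was Uqcrh, the hinge protein of complex III, which makes 1 of the 61 members with an RNAP2 region (1.64%), beside 7.07% of the 7878 other genes with one. The peaks reached 33.5 and 15.7 by −log10 p in replicates 1 and 2, a −log10 q of 28.0 and 10.7, and a fold enrichment over input of 8.59 and 5.68. By strength the region ranked 86 of the 1256 REV-ERBα regions. Uqcrh was the only member with a −log10 q of at least 1.3, that is q of at most 0.05, in either REV-ERBα list. Of other genes with an RNAP2 region, 2.74% had a REV-ERBα region that met this limit in both lists.

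The region, chr4:116074976-116076077, covers the start of Uqcrh at 116075071 on the minus strand and that of Lrrc41, 198 bp away on the plus strand. Its summits, at 116075288 and 116075279, lie at −217 and −208 bp from the Uqcrh start (negative is upstream), in an annotated exon of Lrrc41 and just beyond the far end of the Uqcrh stretch printed above. An RNAP2 region of 3.77 and 5.56 at chr4:116075317-116075792 overlaps it on the Lrrc41 side. At the Uqcrh start itself, RNAP2 had a peak of 6.82 in replicate 1, with its summit 16 bp downstream, and the strongest replicate 2 peak had its summit at −518 bp. Peaks alone do not say which of the 2 genes the REV-ERBα region belongs to.

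At the other members REV-ERBα peaks did not recur at the same place. With Uqcrh included, 6 of the 61 members in replicate 1 and 8 in replicate 2 reached a −log10 p of 3. Of the 7878 other genes with an RNAP2 region, 921 and 1073 did. In replicate 1, 18 of the 61 genes had a peak (29.5%), beside 29.3% of other genes with an RNAP2 region, and in replicate 2, 19 had one (31.1%), beside 31.8%. The single-list shares were near those of other genes. Over all 76 members and apart from Uqcrh, the highest values were 4.15 in replicate 1, at Ndufaf7, and 4.92 in replicate 2, at Ndufb7, both chosen after their values were seen. Of the 9 members with a peak in both lists, 1 had an overlapping pair (11.1%), and of 1065 other genes 554 had one (52%).

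BMAL1 regions were found at 2 members, Ndufb9 and Uqcrh, which is 3.28% of the 61, beside 4.15% of other genes with an RNAP2 region. Neither region was at a promoter. The strongest replicate 2 peak of Ndufb9 did lie there, with a −log10 p of 4.25 and its summit 187 bp downstream of the start. In replicate 1 the only peak in reach of Ndufb9 was the distal one. The Ndufb9 region, chr15:58925724-58926540, had a −log10 p of 2.30 and 1.87 and summits at −7777 and −7834 bp from the start, in introns of Tatdn1 and Gm49356, and its nearest gene start was that of Tatdn1. The Uqcrh region, chr4:116065479-116066527, had 2.995 and 1.87, with summits 8819 and 8623 bp downstream of the start, in intergenic sequence past the end of the gene. Neither region overlapped an RNAP2 region, and the −log10 q was 0 in all 4 peaks of these regions. With BMAL1 and the other lists cut to equal sizes, 0 members kept a BMAL1 region, beside 1.47% of other genes with an RNAP2 region, 1 kept the REV-ERBα region, beside 6.97%, and 55 had an RNAP2 region (72.4%), beside 33.6% of other genes.

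Single BMAL1 lists covered more members. In replicate 1, 15 of 61 members had a peak (24.6%), beside 28.6%, and in replicate 2, 56 of 61 (91.8%), beside 84.2%. No BMAL1 peak of any member had a −log10 q of at least 1.3, and the highest −log10 p were 3.54 and 4.95. In replicate 2, 18 of the 69 members with a peak stood exactly at the commonest low step of 1.87. Shared sites were found at 0 members, beside 2.25% of other genes with an RNAP2 region.

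Among other genes, the share with a REV-ERBα region rose with RNAP2 strength. Whether RNAP2 strength bears on the members' share was not tested. Of other genes, 3.07% had a REV-ERBα region where RNAP2 strength was under 3, 4.94% from 3 to 6, 8.79% from 6 to 12, 15.2% from 12 to 25 and 40% at 25 or more. Of the members, 0 of 11, 1 of 24, 0 of 18 and 0 of 8 had one in the first 4 of these ranges, and none reached 25. The median strength was 5.52 over the 61 members (1.48 to 24.7) and 4.73 over other genes, which reached 97.9.

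Neighboring pathways were counted in the same way, over all genes of each group. Of all other protein-coding genes, 36.3% had an RNAP2, 3.23% a REV-ERBα and 2.81% a BMAL1 region. Of all 76 members, 80.3%, 1.32% and 2.63% had one. Of the 18 Atp5 gene records of complex V, ATP synthase, 17 had an RNAP2 region and 0 a REV-ERBα or BMAL1 region. Cyc1 (29.1 and 18.5) and Cycs (17.7 and 16.9), for cytochrome c1 and cytochrome c, both had an RNAP2 region and neither had a clock factor region. Of 78 mitochondrial ribosomal protein genes, 58 had an RNAP2 region (74.4%), 4 a REV-ERBα region (5.13%) and 2 a BMAL1 region (2.56%). Of 91 cytosolic ribosomal protein genes, the counts were 80 (87.9%), 4 (4.4%) and 3 (3.3%). Shared sites were found at 2 and 1 genes of these groups. Muscle markers differed, with a REV-ERBα region at 8 of 10 and a BMAL1 region at 7 of 10. Among markers of other cells, 1 of 4 macrophage genes (Cd68, 6.67 and 8.54) and 1 of 4 liver genes (Ttr, 21.7 and 30.8) had a REV-ERBα region. Endothelial, fibroblast and adipocyte markers had 0, and BMAL1 had a region at 0 of these other markers.

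Of 10 regulators of mitochondrial gene expression, 7 had an RNAP2 region and 1 a REV-ERBα region, beside 36.3% and 3.23% of all other protein-coding genes. That gene was Yy1, with REV-ERBα peaks of 3.57 and 2.31 and a shared site. Ppargc1a, which encodes PGC-1α, had a REV-ERBα peak of 4.15 in replicate 1 and none in replicate 2, and BMAL1 peaks of 2.995 and 2.40 that did not overlap. Tfam, Esrrb and Esrrg had no RNAP2 region in both replicates.

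**Figure D4:**
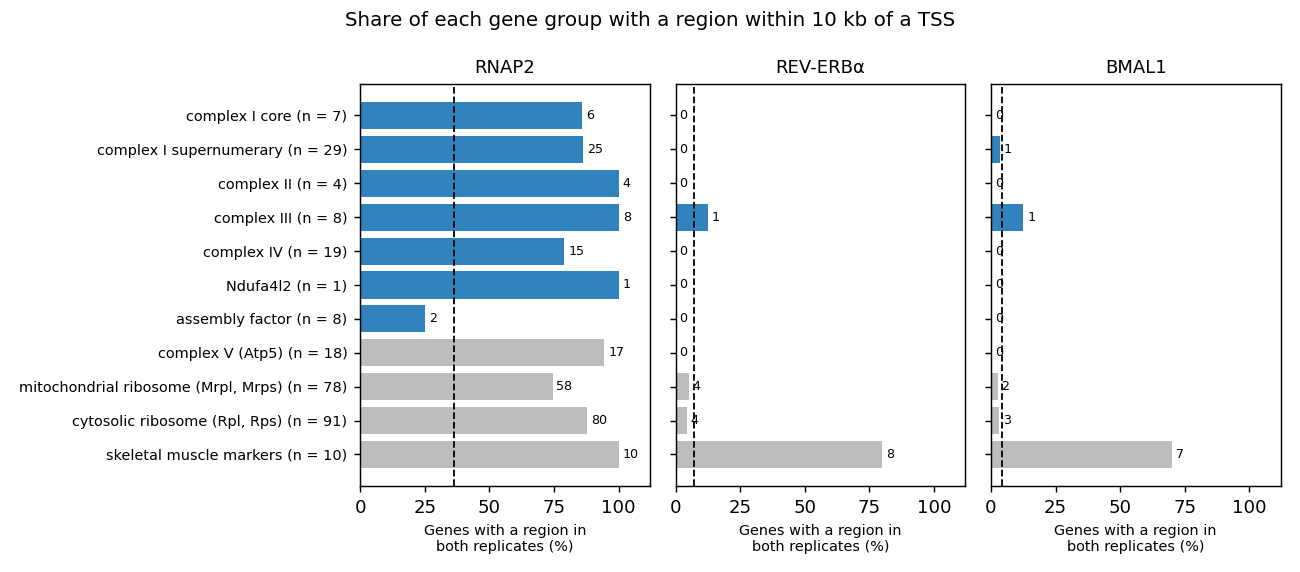
Percentage of genes in each group with a reproducible region (both replicates, 10 kb around the TSSs), for RNAP2, REV-ERBα and BMAL1 (panels), with the number of genes beside each bar. Blue bars are classes of the respiratory chain set, grey bars comparison groups, and the dashed lines mark 36.3% of all other genes for RNAP2, and 7.07% and 4.15% of other genes with an RNAP2 region for REV-ERBα and BMAL1. All bars count every gene of the group, and the muscle markers are the group with high bars in all 3 panels.

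The members shared features of gene layout. Their median length was 7419 bp, compared with 17519 bp for other genes, while the median window searched was 20001 bp and 20005 bp. A start of another protein-coding gene on the opposite strand lay within 1 kb for 25 of 76 members (32.9%) and for 10.5% of other genes. Among genes with an RNAP2 region the shares were 31.1% and 18.4%. At such paired starts a peak cannot be credited to either gene, and this applies, for example, to Ndufb9, Sdha, Sdhc, Sdhd, Cox4i1 and Uqcrh.

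Promoter sequences from RefSeq (GRCm38.p6, 250 bases before to 50 after the start) were matched for 60 members and 14179 other genes. Among the members not matched were Cox4i1, Cox4i2, Cox6a2, Cox6c, Cox7a2l, Cox8c, Ndufa2, Ndufa4l2, Ndufaf6, Ndufb9, Ndufs1, Sdhc, Uqcrb, Uqcrc2 and Uqcrq. Exact matches were sought on both strands, and a match is a description of the letters only. The NRF1 motif GCATGCGC was in 15% of the members' promoters and 4.08% of others, and among genes with an RNAP2 region in 12% and 6.38%. It occurs in the printed stretches of Cox6a1, on both strands of one palindromic site, and of Ndufa6.

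The YY1 motif AAGATGGC was in 13.3% of members and 3.45% of other promoters, and among genes with an RNAP2 region in 10% and 5.35%. All 8 of its matches among members lay downstream of the TSS on the coding strand, between positions 11 and 39, where 43.1% of the matches in other promoters lay downstream on that strand. These 8 promoters belong to complex I subunit genes and the assembly factor gene Ndufaf8. Since the letters AAGATGGC contain ATG, a match there may also overlap a start codon, which was not examined.

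The ETS motif CCGGAAG was in 21.7% of members and 13.4% of other promoters, and 20.4% of those with an RNAP2 region, so its share was near that of other occupied genes. Uqcrh has 1 ETS match, starting 10 bases upstream of the start, and none of the other 7 motifs. The E-box CACGTG was in 3.33% of members, at Ndufa7 and Ndufv1, and in 8.69% of other promoters, and the MyoD-type E-box CAGCTG in 8.33% and 15.6%. The nuclear receptor element AGGTCA was in 20% and 14%, and the MEF2 motif CTAAAAATA in 0% and 0.367%. The longer ERR motif TCAAGGTCA, which contains AGGTCA, was in 1.67% and 0.367%, where the members' share is 1 promoter of 60, that of Sdhd. Among genes with an RNAP2 region the shares were 4% and 11.4% for CACGTG, 8% and 14.8% for CAGCTG, and 20% and 11.9% for AGGTCA.

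**Figure D5:**
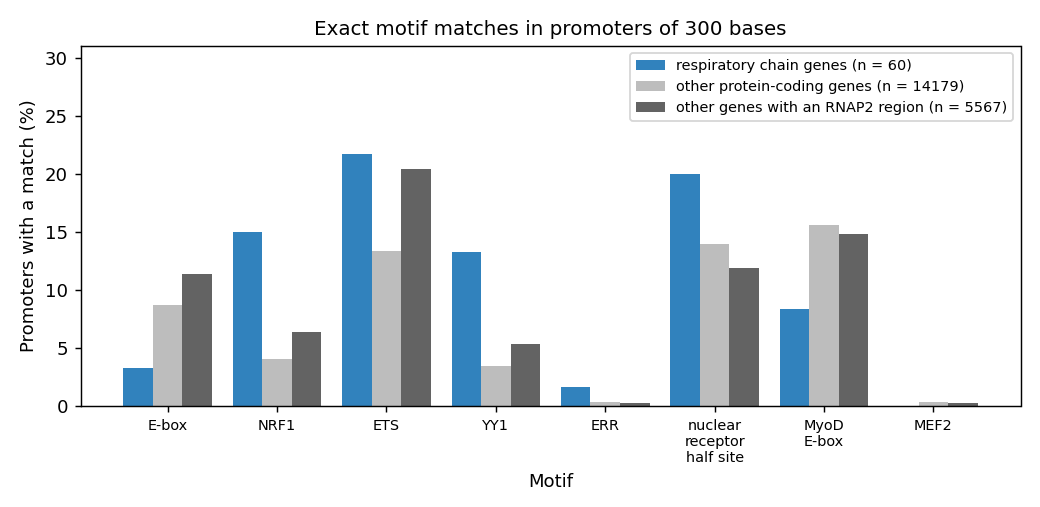
Percentage of promoters (250 bases before to 50 after the start) with at least 1 exact match to each of 8 motifs, for 60 respiratory chain genes (blue), 14179 other genes (light grey) and 5567 other genes with an RNAP2 region (dark grey). The NRF1 and YY1 bars of the respiratory chain genes, at 15% and 13.3%, stand above both grey bars, and those of the 2 E-boxes, at 3.33% and 8.33%, stand below.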

How the data were processed

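ChIP peaks of 6 samples were used (BMAL1, REV-ERBα and RNAP2, 2 replicates each). According to the methods and the submitters' processing notes, the authors aligned reads to mm10 with BWA (version 7.12 in the notes), discarded duplicates and reads mapping to several places, down-sampled the replicates and ran MACS2 2.1.1 on each of them against input, with 0.05 as the p-value limit. The deposited values of each peak are its fold enrichment, a ratio of the summit signal to the local input background, and its −log10 p and −log10 q. The score that the authors also deposited was not used. Reads and coverage tracks were not used here, so the depth behind a single peak is unknown and no counting interval is given.

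Genes and TSSs came from GENCODE M21 (GRCm38), basic transcripts. Values of a gene in a list are those of its peak with the highest −log10 p within 10 kb. Shares are counts beside those of other genes. No test was run, since peaks carry no read counts and the comparisons are between groups of genes, not of samples. The rule for members uses gene symbols alone, but it and the lists were chosen with earlier results of these data known. Genes named were those with a clock factor region, the 10 members with the highest RNAP2 strength, those without an RNAP2 peak, complex II, and isoform groups of complex IV. Steps were run in Python 3.11.15 with matplotlib 3.10.9 and tested on simulated data. Alternatives were stricter p, q and overlap, equal list sizes, distances of 1 and 5 kb, other sets of TSSs, the nearest gene alone, no assembly factors, and each replicate left out. A member gene and a neighboring gene enter the counts but are not reported here by name.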

Additional observations from a re-analysis of the deposited data

How the results depend on the processing

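The count of 61 members with an RNAP2 region was between 50 and 61 under the alternatives that kept both replicates, other than a −log10 q of at least 1.3, under which 40 members remained counted (52.6%, beside 17.8% of other genes). With RNAP2 replicate 2 alone it was 72 (94.7%, beside 81.4% of other genes), and with replicate 1 alone 73 (96.1%, beside 70%). The REV-ERBα count was 1 under all alternatives with both lists. The share of other genes with an RNAP2 region fell under stricter settings. From 7.07% it went to 4.77% at a −log10 p of at least 3, 4.21% at 1 kb and 2.74% at a −log10 q of at least 1.3. With a single REV-ERBα list, 22 members (28.9%, beside 31.8%) or 23 (30.3%, beside 29.3%) were counted. The BMAL1 count of 2 was 0 at a −log10 p of at least 3 (beside 0.559% of other genes with an RNAP2 region), a −log10 q of at least 1.3 (0.241%), equal list sizes (1.47%), and distances of 1 kb (0.939%) and 5 kb (2.37%), so the background fell as well. The BMAL1 count was 1 with an overlap of 50% of the shorter peak (beside 2.92%) and 1 with the nearest gene alone (beside 3.25%). With a single BMAL1 list it was 22 (28.9%, beside 28.6%) or 69 (90.8%, beside 84.2%). The count of shared sites was 0 in every alternative run. Stricter limits and shorter distances could not have raised it, and the share of other genes with an RNAP2 region fell to 0.343% at the q limit. Among all other protein-coding genes, 3.23% had a REV-ERBα and 2.81% a BMAL1 region, beside 1.32% and 2.63% of all 76 members. TSSs of all annotated transcripts, chosen after seeing the data, left the RNAP2 count at 61. They gave 3 of all 76 members a BMAL1 region (3.95%). The background, 6.5%, counts only other genes with an RNAP2 region, so the bases of these shares differ. No paired analysis was possible because the results come from counts of peaks and no test. Peak lists without reads limit the precision of every value.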
